A study of Drosophila melanogaster with 10 samples.

Results

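Peroxiredoxins, superoxide dismutases and catalase remove superoxide and hydrogen peroxide, the oxidants that respiration and oxidase enzymes release. A superoxide dismutase turns superoxide into hydrogen peroxide, and catalase and the peroxiredoxins then break down the peroxide, the peroxiredoxins through a reactive cysteine that thioredoxin, glutathione and sulfiredoxin help to restore. Flies lack the selenium-dependent glutathione peroxidases of mammals, and peroxiredoxins are among their main peroxide-removing enzymes.

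The members were the Drosophila melanogaster genes whose current symbol is Prx followed by a digit, together with Sod1, Sod2 and Cat, 11 genes in the gene table used here. Of these, 5 were tested: Prx6c, Prx6a, Prx3, Cat and Sod2, each through 1 probe set that carries its name alone and has a mean log2 value above 4. They were 5 of 6721 tested features, which were genes, unnamed probe sets and probe sets shared by several genes. Prx1 had a probe set of its own, but all 10 samples gave 2.20 on the log2 scale, the lowest value in the table. Prx6b was covered only by a probe set that is also annotated to CG12896 and Prx6c. The annotation used lists no probe set under the names of Prx2, Prx4, Prx5 and Sod1, which were not analysed here.

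RNA was measured on Affymetrix arrays from Drosophila S2 cells, a cultured embryonic line with features of macrophage-like blood cells. Every sample received 10 µg of double-stranded RNA (dsRNA) for 1 h without serum and was harvested on day 7. A split on day 3 and 10% fetal calf serum are also listed for every sample. The JIL-1 RNAi group held 5 samples: 2 in batch A were given a JIL-1 dsRNA made from the 5' part of the gene, and 3 in batch B a dsRNA made from its 3' part. JIL-1 encodes a histone kinase bound to chromatin. The control RNAi group held 5 samples: 3 in batch A were given GST dsRNA, and 2 in batch B EGFP dsRNA. The part of JIL-1 targeted, the control dsRNA and the batch change together, so they cannot be told apart. The labels name 2 Qiagen extraction methods without saying which was used for which sample. The series calls the samples biological replicates without naming separate cultures, so the p-values measure the spread between these samples.

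All 10 plasmatocyte markers examined had a mean above 4, and 5 of them fell after JIL-1 RNAi (Hml, NimC1, eater, Ppn and Sr-CI), where 14.9% of all tested fell. The summed linear level of all 10 was 64167 to 67285 in JIL-1 RNAi and 74707 to 77701 in control samples of batch A, and 67626 to 71997 in JIL-1 RNAi and 62916 to 65576 in control samples of batch B. Such a sum is carried mostly by its brightest genes, among them vkg, Col4a1 and Pxn, and Pxn rose by 0.88 within batch B (adjusted p = 3.06e-05). NimC1 had means of 11.76 in GST and 7.09 in EGFP controls. None of the 3 fat body markers with a probe set had a mean above 4. The neuron marker elav did, with means of 4.95 in GST and 7.98 in EGFP controls. So did the muscle marker bt, at 9.29 and 8.18. Neither gene passed over both batches. Within batches bt changed by -0.13 in batch A (adjusted p = 0.213) and by 0.40 in batch B (adjusted p = 0.00525). The difference between these changes of bt passed (adjusted p = 0.0457), as it did for 1.38% of all tested. The 2 germ line markers with a probe set had a mean of 4 or less. Their summed linear level was 38.8 to 47.6 in JIL-1 RNAi and 9.48 to 9.76 in control samples of batch A. In batch B it was 16.0 to 28.6 in JIL-1 RNAi and 9.20 in control samples. The crystal cell regulators lz and peb lay at or under 4, whereas the crystal cell enzymes PPO1 and PPO2 fell after JIL-1 RNAi by 0.67 (SE 0.13, adjusted p = 0.00318) and by 0.60 (SE 0.082, adjusted p = 4.24e-04). The summed linear level of the crystal cell list was 927 to 1001 in JIL-1 RNAi and 1216 to 1433 in control samples of batch A, and 188 to 207 in JIL-1 RNAi and 323 to 343 in control samples of batch B. Of 6 lamellocyte markers 4 were tested: PPO3 fell by 0.58 (SE 0.087, adjusted p = 7.24e-04), msn rose by 0.25 (SE 0.086, adjusted p = 0.0475), mys and cher did not pass, and atilla and ItgaPS4 had a mean of 4 or less. The summed linear level of this list was 6193 to 6619 in JIL-1 RNAi and 6041 to 6983 in control samples of batch A, and 9949 to 10401 in JIL-1 RNAi and 8712 to 8759 in control samples of batch B. A measure of RNA degradation, the 3' minus 5' signal of GAPDH, was lower in JIL-1 RNAi than in control samples of both batches. On the log2 scale it was 1.65 to 1.80 against 2.07 to 2.19 in control samples of batch A. In batch B it was 1.20 to 1.27 against 1.77 to 1.79 in control samples. The same measure of Act5C was 0.82 to 0.92 against 0.81 to 1.02 in control samples of batch A, and 2.27 to 2.46 against 2.79 to 3.06 in control samples of batch B, so it differed with the RNAi group in batch B. In bulk RNA, fewer cells of a type and less RNA per cell cannot be told apart, and the part of the marker levels in the results was not tested. Fits with either measure as a covariate are given beside the genes they bear on. The GAPDH measure did not overlap between the RNAi groups of either batch, so a fit with it can hardly separate the RNAi group from the measure. Changes and lost calls in that fit therefore do not show what RNA quality contributes. With the GAPDH measure JIL-1 itself no longer passed, at -1.12 (SE 0.32, adjusted p = 0.183).

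The JIL-1 transcript was lower in the JIL-1 RNAi samples than in the control samples of the same batch, 2.73-fold in batch A and 3.19-fold in batch B (log2 change over both batches -1.56, SE 0.077, adjusted p = 5.32e-07). A change is the log2 value in JIL-1 RNAi minus that in control RNAi, from a limma fit of 5 against 5 samples that includes batch. Adjusted p-values are limma's, by Benjamini-Hochberg over all 6721, with a threshold of 0.05. Changes within a batch come from a limma fit of 4 means, 1 for each batch and RNAi group. In JIL-1 RNAi samples of batch A the JIL-1 mean was 4.35, near the limit of 4. The size of its fold is therefore not compared between the batches. The JIL-1 call ended without a term for batch (-1.26, adjusted p = 0.153).

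Setting JIL-1 RNAi against control RNAi shows which transcripts differ when the kinase transcript is reduced. Among the members 1 fell, Prx6c, and 1 rose, Prx6a, while Prx3, Cat and Sod2 did not pass the threshold. Over all tested genes and probe sets 35.7% passed, 20.8% as rises and 14.9% as falls, so 2 of 5 is near the share of all tested. JIL-1 RNAi and control values did not overlap in either batch, with 1 direction in both, for the same 2 members. Over all tested this held for 31.6%, with JIL-1 RNAi higher in 18.2% and lower in 13.4%.

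**Figure D1:**
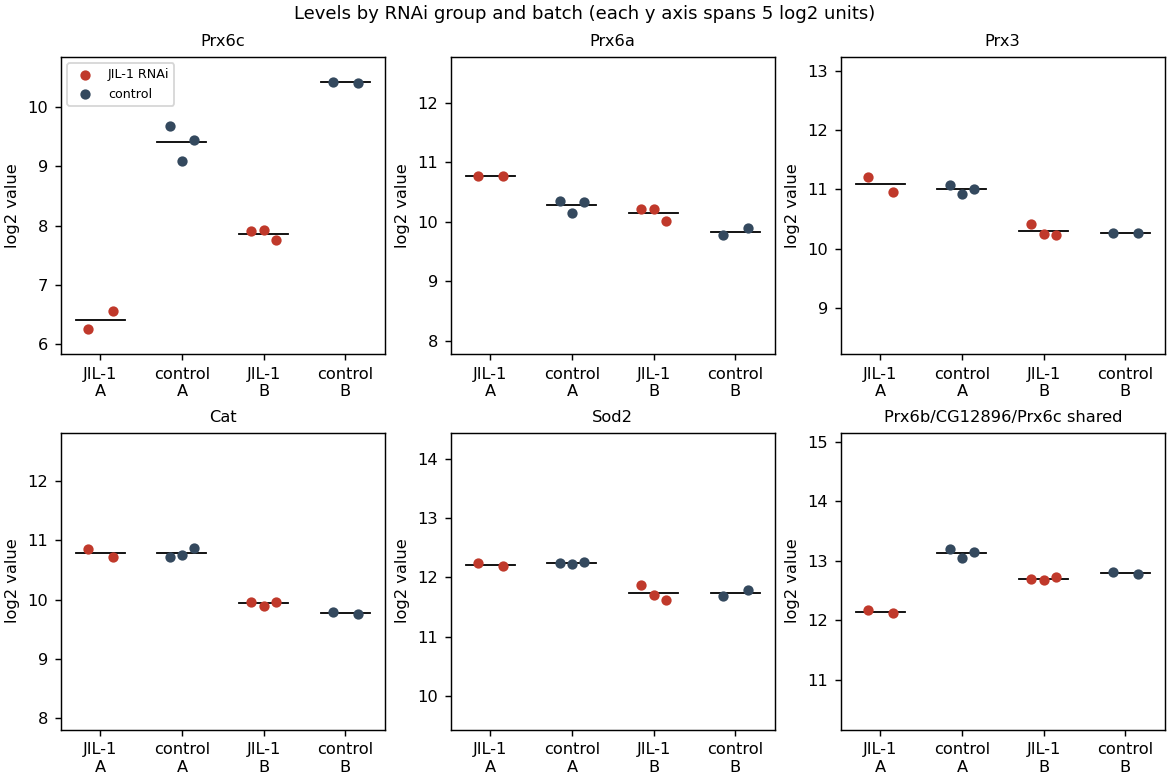
Log2 values of the 5 tested members and of the probe set shared by Prx6b, CG12896 and Prx6c (y axes, each spanning 5 log2 units) by RNAi group and batch (x axis); points are samples and lines are means. Prx6c lies lower in JIL-1 RNAi than in control samples of both batches, Prx6a lies higher, and Prx3, Cat and Sod2 differ between batches more than between RNAi groups.

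Prx6c encodes a peroxiredoxin of the 1-Cys type, the class that uses a single reactive cysteine. In batch A its log2 value was 6.26 and 6.56 in JIL-1 RNAi samples, against 9.68, 9.09 and 9.44 in control samples. In batch B it was 7.90, 7.92 and 7.76 in JIL-1 RNAi samples, against 10.42 and 10.41 in control samples. Every JIL-1 RNAi sample lay below every control sample, across batches too. Prx6c was 6.85-fold lower over both batches (-2.78, SE 0.13, adjusted p = 2.85e-07), with 7.99-fold in batch A (-3.00, SE 0.16, adjusted p = 2.13e-06) and 5.87-fold in batch B (-2.55, SE 0.16, adjusted p = 6.68e-06). Within batch A 28.2% of all tested passed, 17.3% as rises and 10.9% as falls. Within batch B 17.6% passed, 7.44% as rises and 10.2% as falls. The difference between the 2 changes was 0.44 (SE 0.22, adjusted p = 0.385), and 1.38% of all tested passed that test. By size, the change of Prx6c was number 13 of the 6721. Leaving out any 1 sample gave a change between -2.83 and -2.67, each with the call kept. With the GAPDH 3' minus 5' signal as a covariate the value was -4.17 (SE 0.33, adjusted p = 0.00235), against an SE of 0.13 without it. That signal lay apart between the RNAi groups of each batch, so this value is not read as a larger fall.

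The 4 means of Prx6c, low to high, were 6.41 ± 0.21 in JIL-1 RNAi of batch A (SD, n = 2), 7.86 ± 0.089 in JIL-1 RNAi of batch B (SD, n = 3), 9.41 ± 0.30 in GST controls (SD, n = 3) and 10.41 ± 0.0096 in EGFP controls (SD, n = 2). No 2 of these combinations overlapped. The 4 means of JIL-1 had the same order, at 4.35, 5.76, 5.80 and 7.44, but there JIL-1 RNAi samples of batch B overlapped with GST controls.

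Prx6a, also a peroxiredoxin of the 1-Cys type, is the other member with a Prx6 symbol that has a probe set of its own. It lies on another chromosome arm, 2L, while Prx6c lies on 2R. In batch A its log2 value was 10.78 and 10.77 in JIL-1 RNAi samples, against 10.35, 10.15 and 10.34 in control samples. In batch B it was 10.21, 10.22 and 10.02 in JIL-1 RNAi samples, against 9.77 and 9.90 in control samples. Each JIL-1 RNAi sample lay above the control samples of its own batch, but JIL-1 RNAi samples of batch B overlapped with GST controls of batch A. Prx6a was 1.32-fold higher over both batches (0.41, SE 0.069, adjusted p = 0.00151), by 0.50 on the log2 scale within batch A (SE 0.091, adjusted p = 0.00367) and by 0.31 within batch B (SE 0.091, adjusted p = 0.0428). The difference between these changes was -0.18 (SE 0.13, adjusted p = 0.549). Leaving out any 1 sample gave 0.37 to 0.45 over both batches, with the call kept. The call within batch B ended without control replicate 3, 4 or 5 (0.31, 0.25 and 0.38) and without JIL-1 RNAi replicate 1, 2, 3 or 4 (0.31, 0.31, 0.28 and 0.28). Control replicate 3 and JIL-1 RNAi replicates 1 and 2 are samples of batch A. Leaving them out cannot alter the batch B change, only its error and adjusted p. It also ended when dim probe sets were kept in the fit (adjusted p = 0.144). With the GAPDH 3' minus 5' signal as a covariate the change over both batches was 0.41 with a wider error (SE 0.31, adjusted p = 0.556), so the call ended.

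**Figure D2:**
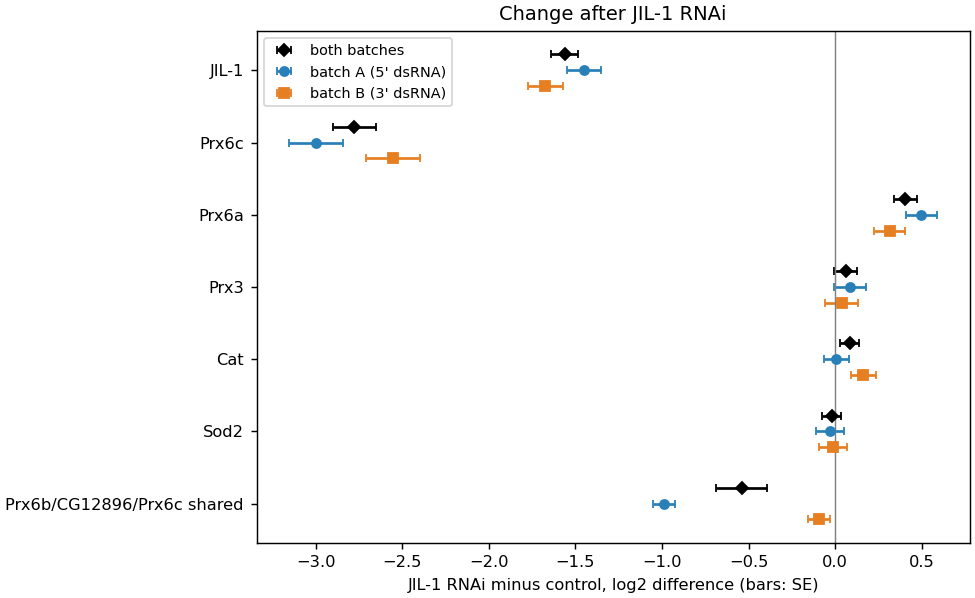
Change after JIL-1 RNAi (x axis, log2 difference from control, bars are SE) of JIL-1, the 5 tested members and the shared probe set (y axis), over both batches and within each. Prx6c changed by -3.00 in batch A and -2.55 in batch B, whereas the shared probe set changed by -0.99 in batch A and -0.094 in batch B.

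The remaining member with a Prx6 symbol, Prx6b, could be followed only through the probe set it shares with CG12896 and Prx6c. The signal of this probe set cannot be divided among the genes it is annotated to. In batch A this probe set gave 12.16 and 12.12 in JIL-1 RNAi samples, against 13.20, 13.05 and 13.14 in control samples. In batch B it gave 12.70, 12.68 and 12.72 in JIL-1 RNAi samples, against 12.81 and 12.78 in control samples. The groups did not overlap in either batch, but the distance was far smaller in batch B. Its change was -0.99 within batch A (SE 0.065, adjusted p = 1.06e-05) and -0.094 in batch B (SE 0.065, adjusted p = 0.366). The change in batch B minus that in batch A was 0.89 (SE 0.092, adjusted p = 0.00165), which 1.38% of all tested also passed, and Prx6c on its own probe set did not pass this test. Over both batches the shared probe set changed by -0.54 (SE 0.15, adjusted p = 0.0175). That call ended without JIL-1 RNAi replicate 1 (-0.45, adjusted p = 0.0607) or JIL-1 RNAi replicate 2 (-0.43, adjusted p = 0.0619), without a term for batch (adjusted p = 0.0742), and with dim probe sets kept in the fit (adjusted p = 0.110). With the GAPDH signal as a covariate the value was -1.62 (adjusted p = 0.231), and with that of Act5C -0.90 (adjusted p = 9.45e-04).

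Prx3 encodes the mitochondrial peroxiredoxin. In batch A it lay at 11.22 and 10.96 in JIL-1 RNAi samples, against 11.08, 10.93 and 11.01 in control samples. Batch B gave 10.41, 10.25 and 10.24 in JIL-1 RNAi samples, against 10.26 and 10.27 in control samples. The groups overlapped in both batches, and the fitted change was 0.060 (SE 0.065, adjusted p = 0.494).

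Sod2 encodes the manganese superoxide dismutase of mitochondria. In batch A it lay at 12.23 and 12.19 in JIL-1 RNAi samples, against 12.24, 12.22 and 12.26 in control samples. Batch B gave 11.87, 11.71 and 11.61 in JIL-1 RNAi samples, against 11.69 and 11.79 in control samples. The groups overlapped in both batches, and the fitted change was -0.020 (SE 0.057, adjusted p = 0.805).

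Cat encodes catalase, the peroxisomal enzyme that splits hydrogen peroxide into water and oxygen. In batch A it lay at 10.86 and 10.71 in JIL-1 RNAi samples, against 10.72, 10.75 and 10.87 in control samples. Batch B gave 9.95, 9.90 and 9.96 in JIL-1 RNAi samples, against 9.79 and 9.76 in control samples. The groups overlapped in batch A only. The fitted change was 0.084 (SE 0.056, adjusted p = 0.266), with 0.0055 for batch A (SE 0.072) and 0.16 for batch B (SE 0.072, adjusted p = 0.161). A p above the threshold does not show that Prx3, Sod2 or Cat had equal levels in both groups.

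All 5 members differed between the control samples of the batches, 4 lower and 1 higher in the EGFP controls of batch B. The mean of Cat was 9.77 ± 0.023 in EGFP controls (SD, n = 2) and 10.78 ± 0.075 in GST controls (SD, n = 3), a difference of -1.01 (SE 0.072, adjusted p = 5.62e-06). Prx3 differed by -0.74 (SE 0.093, adjusted p = 1.32e-04), Sod2 by -0.50 (SE 0.081, adjusted p = 5.95e-04) and Prx6a by -0.44 (SE 0.091, adjusted p = 0.00238). Prx6c went the other way, at 1.01 (SE 0.16, adjusted p = 4.42e-04). In this comparison 62.4% of all tested passed, 24.7% lower and 37.7% higher in the EGFP controls, and the median over all tested was 0.10. The 3' minus 5' signal of Act5C, given above, was higher in EGFP controls than in GST controls, whereas that of GAPDH was lower. The part of either signal in this difference was not tested. Batch and control dsRNA cannot be told apart.

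For Cat, Prx3 and Sod2 the distance between batches was larger than any distance between RNAi groups. Values of these 3 genes in batch A lay above all values in batch B, in JIL-1 RNAi and control samples alike. The residual SD within a batch and RNAi group was 0.20 for Prx6c, above the median of 0.11 over all tested. It was 0.10 for Prx3, 0.099 for Prx6a, 0.082 for Sod2 and 0.064 for Cat, below that median.

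Chromosomal neighbours were taken from the order of protein-coding genes in the Release 6 gene table, with 5 on each side of each tested member. Prx6c, CG11825, CG33474, Prx6b and CG12896 follow each other in this order, so the 3 genes of the shared probe set lie close together. Of the 10 neighbours of Prx6c 2 were tested, and 1 of them, CG11825, which is directly beside Prx6c, changed by -2.04 (SE 0.093, adjusted p = 2.85e-07). In batch A CG11825 changed by -2.15 and in batch B by -1.92. The other, RanBPM, rose by 0.14 (SE 0.047, adjusted p = 0.0383). Among all 50 neighbours of the 5 members 25 were tested, of which 8 rose and 3 fell, against 20.8% and 14.9% of all tested. Besides CG11825 the falls were those of P5cr-2, in the row of Prx3, by 0.78 (SE 0.13, adjusted p = 0.00142) and Grx1, in the row of Cat, by 0.61. The only neighbour that overlaps a member in the gene table was CG8814 at Prx6a, which changed by 0.068 (SE 0.065, adjusted p = 0.443). The neighbour analysis was chosen after values had been seen.

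**Figure D3:**
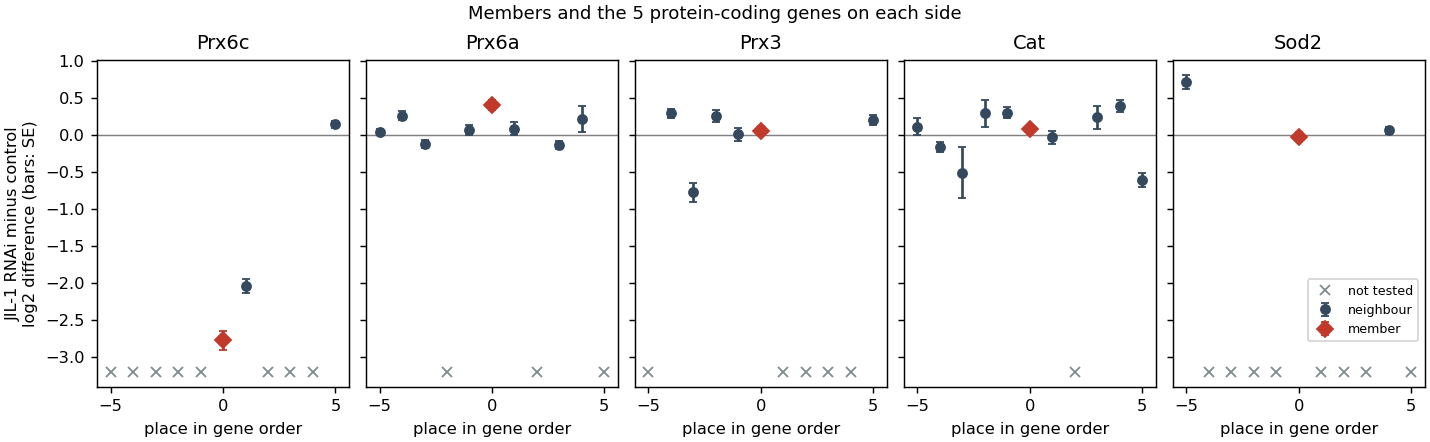
Change after JIL-1 RNAi (y axis, log2 difference from control, bars are SE) of each tested member at place 0 and of the 5 protein-coding genes on each side (x axis, place in gene order); crosses mark neighbours that were not tested. CG11825, at place 1 beside Prx6c, changed by -2.04, and the tested neighbours of the other members lie between -0.78 and 0.72.

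The genes whose pattern was most like that of Prx6c were found by Pearson's r over the 10 arrays after each batch mean was subtracted. They were Spn77Ba (r = 0.996), CG7194 (0.995), Argk1 (0.995), CG14273 (0.994) and CG11825 (0.994). Spn77Ba encodes a serpin and Argk1 an arginine kinase. The arrays share RNAi groups, so any gene with a large fall in both batches scores high, and r is given as a description. The changes after JIL-1 RNAi were -1.45 (SE 0.082) for Spn77Ba, -1.41 (SE 0.053) for CG7194, -1.46 (SE 0.066) for Argk1 and -2.02 (SE 0.13) for CG14273, each smaller in size than that of Prx6c. Between the control samples of the batches these genes differed in either direction, from -3.21 for Spn77Ba to 1.11 for Argk1, in EGFP controls minus GST controls. By the same measure JIL-1 itself had an r of 0.97 with Prx6c and Prx6a an r of -0.89, over 10 arrays.

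**Figure D4:**
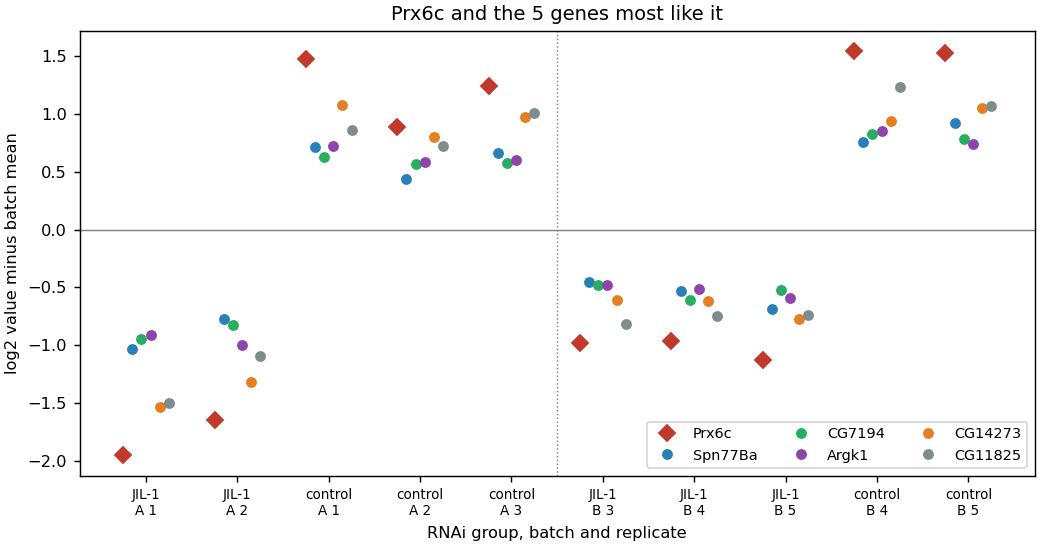
Log2 value minus the batch mean (y axis) of Prx6c and of the 5 genes most like it, for each sample (x axis, RNAi group, batch and replicate; the dotted line divides the batches). All 6 genes lie below 0 in the 5 JIL-1 RNAi samples and above 0 in the 5 control samples.

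The enzymes that act beside the members were followed through 5 lists of redox genes. Of 62 genes on these lists 34 were tested, of which 4 rose, 9 fell and 21 did not pass, with a median change of -0.021 against 0.047 over all tested. Over all tested 20.8% rose and 14.9% fell, so 13 calls of 34 are near the 35.7% of all tested, and each count below is to be read against these shares. A further 17 had a probe set with a mean of 4 or less, 8 had none of their own listed and 3 symbols matched no gene of the table. With the GAPDH 3' minus 5' signal as a covariate limma called 0 of the 34, with 6 at an unadjusted p under 0.05, and 33 of all 6721. As said above, this fit can hardly separate the RNAi group from the signal. In that fit the changes were -0.72 for Srx, -0.63 for Irc, -0.22 for Grx1, -0.48 for Grx5, -0.57 for Idh, -0.47 for Gclc and -1.05 for p38c. They were -0.68 for p38a, -0.59 for MtnA, 0.73 for Sesn, 0.34 for Ask1, 0.71 for dj-1beta and 0.091 for Ctr1A. With the Act5C signal as a covariate the calls of Gclc (adjusted p = 0.295), p38a (adjusted p = 0.0519) and Ctr1A (adjusted p = 0.177) ended, and the changes of Grx1 (-0.39) and dj-1beta (0.33) moved by over 1.5 times.

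Among other enzymes of superoxide and peroxide removal, 2 of 4 tested genes fell and none rose, against 14.9% and 20.8% of all tested. Srx encodes sulfiredoxin, which returns overoxidised peroxiredoxins of the 2-Cys type to use. Its log2 value was 8.15 and 8.02 in JIL-1 RNAi samples of batch A, against 8.92, 8.61 and 9.10 in control samples. Samples of batch B gave 7.59, 7.64 and 7.78 in JIL-1 RNAi samples, against 8.53 and 8.45 in control samples. The groups did not overlap in either batch, and Srx was 1.75-fold lower (-0.81, SE 0.089, adjusted p = 1.08e-04). Both batches gave a similar size, -0.79 for A and -0.82 for B. Irc, a secreted catalase with a part in gut immunity, fell by 0.27 (SE 0.058, adjusted p = 0.00554), by 0.39 within batch A, while its change of -0.15 within batch B did not pass. The peroxidase Pxn, also one of the plasmatocyte markers, changed by 0.42 (SE 0.15, adjusted p = 0.0543). Its change was -0.042 for batch A (adjusted p = 0.681) and 0.88 for batch B (adjusted p = 3.06e-05). The difference between these changes passed (adjusted p = 0.00177), as it did for 1.38% of all tested. The glutathione peroxidase homologue Gtpx changed by -0.020. Sod3, Ccs, Pxt and Pxd had a mean of 4 or less.

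In the thioredoxin and glutaredoxin systems 2 of 7 tested genes fell and none rose, against the same 14.9% and 20.8%. Grx1 encodes a glutaredoxin, which reduces protein disulfides with glutathione. In batch A it lay at 8.94 and 8.88 in JIL-1 RNAi samples, against 9.31, 9.29 and 9.29 in control samples. For batch B the values were 8.73, 8.44 and 8.52 in JIL-1 RNAi samples, against 9.37 and 9.43 in control samples. Every JIL-1 RNAi sample lay below every control sample, and Grx1 was 1.53-fold lower (-0.61, SE 0.093, adjusted p = 8.06e-04). Grx5, a glutaredoxin known in yeast for mitochondrial iron-sulfur cluster assembly, fell by 0.28 (SE 0.054, adjusted p = 0.00318), with -0.29 for batch A and -0.28 for batch B. Trx2, the thioredoxin that reduces peroxiredoxins, changed by 0.0004 (adjusted p = 0.996), and Trxr1, its reductase, by -0.19 (adjusted p = 0.0674).

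In glutathione synthesis and NADPH supply 2 of 3 tested genes fell by small amounts and none rose, where 14.9% of all tested fell. Idh, the NADP-dependent isocitrate dehydrogenase, fell by 0.26 (SE 0.072, adjusted p = 0.0197), and without JIL-1 RNAi replicate 2 the change of -0.20 did not pass (adjusted p = 0.0689). Idh also lost its call with dim probe sets kept (adjusted p = 0.0750) and without a term for batch (adjusted p = 0.231). Gclc, the catalytic subunit of the first enzyme of glutathione synthesis, fell by 0.22 (SE 0.077, adjusted p = 0.0477), and the call held when replicate 2 of either group was left out. Without any 1 of the other 8 samples it was lost (adjusted p = 0.0642 to 0.138). Quantile normalization (adjusted p = 0.0523) and batch as a random block (adjusted p = 0.142) ended the call of Gclc too. So did keeping dim probe sets (adjusted p = 0.166) and leaving out the term for batch (adjusted p = 0.511). The malic enzyme Men changed by 0.14 (adjusted p = 0.0712).

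Of 15 tested redox and stress regulators 3 rose, 2 fell and 10 did not pass, so 5 of 15 passed, near the 35.7% of all tested. p38c, a stress-activated kinase of the p38 family, had the largest change on the redox lists. Its log2 value was 8.50 and 8.03 in JIL-1 RNAi samples of batch A, against 9.79, 9.57 and 9.62 in control samples. Samples of batch B gave 6.99, 7.12 and 6.84 in JIL-1 RNAi samples, against 8.40 and 8.30 in control samples. The groups did not overlap in either batch, and p38c was 2.60-fold lower (-1.38, SE 0.094, adjusted p = 4.26e-06), with -1.40 for batch A and -1.37 for batch B.

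The related kinase p38a fell by 0.27 (SE 0.067, adjusted p = 0.0126). Sesn, a sestrin of the nutrient and oxidant response, rose by 0.33 (SE 0.055, adjusted p = 0.00139), with 0.37 for batch A and 0.28 for batch B. Ask1, a kinase upstream of p38 and JNK, rose by 0.22 (SE 0.062, adjusted p = 0.0227), a call that ended without JIL-1 RNAi replicate 1 (0.20) or control replicate 4 (0.17). Ask1 also lost its call with quantile normalization (adjusted p = 0.0553), with dim probe sets kept (adjusted p = 0.0652) and without a term for batch (adjusted p = 0.216). dj-1beta, a homologue of the human DJ-1 protein, rose by 0.20 (SE 0.067, adjusted p = 0.0369). Its change was 0.35 for batch A (adjusted p = 0.00599) and 0.061 for batch B (adjusted p = 0.609). The call over both batches held when control replicate 4, control replicate 5 or JIL-1 RNAi replicate 5 was left out. Without any 1 of the other 7 samples it was lost, at 0.14 to 0.21. The call of dj-1beta was lost as well with dim probe sets kept (adjusted p = 0.111) and without a term for batch (adjusted p = 0.123). The antioxidant transcription factor cnc changed by 0.0068 (adjusted p = 0.932) and its inhibitor Keap1 by -0.30 (adjusted p = 0.076).

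Among oxidant sources and metal handling genes 1 of 5 tested rose, 1 fell and 3 did not pass, so 2 of 5 passed, against 35.7% of all tested. MtnA encodes a metallothionein, a small protein that binds copper and other metals. In batch A it lay at 10.41 and 10.51 in JIL-1 RNAi samples, against 11.32, 11.12 and 11.39 in control samples. For batch B the values were 11.13, 11.27 and 11.07 in JIL-1 RNAi samples, against 12.60 and 12.84 in control samples. The groups did not overlap within a batch, and MtnA was 2.28-fold lower (-1.19, SE 0.14, adjusted p = 1.55e-04), with -0.82 for batch A and -1.56 for batch B (adjusted p of the difference 0.0531). Ctr1A, a copper importer, rose by 0.37 (SE 0.090, adjusted p = 0.0107), with 0.27 for batch A (adjusted p = 0.131) and 0.46 for batch B (adjusted p = 0.0324). This call ended with batch as a random block (adjusted p = 0.0799), with dim probe sets kept (adjusted p = 0.0615) and without a term for batch (0.049, adjusted p = 0.965). The ferritin subunits Fer1HCH and Fer2LCH changed by -0.011 and 0.096, with adjusted p of 0.895 and 0.513. The oxidases Duox and Nox had a mean of 4 or less.

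**Figure D5:**
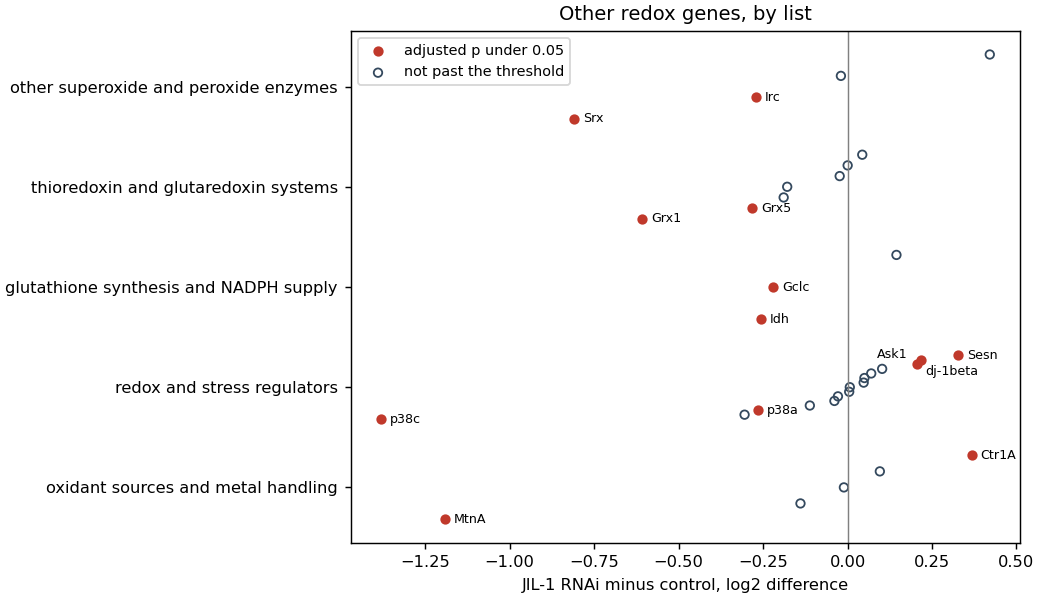
Change after JIL-1 RNAi (x axis, log2 difference from control) of the 34 tested genes of 5 redox lists (y axis); filled points passed the threshold and are named, open points did not. p38c at -1.38, MtnA at -1.19, Srx at -0.81 and Grx1 at -0.61 lie farthest to the left, and no rise exceeds 0.37 among those that passed.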

How the data were processed

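The authors deposited 1 log2 value per probe set and sample, which the submitters' processing notes credit to GCRMA, a method of background correction, normalization between arrays and probe summary. Its version and its handling of the batches are not given here. Values ran from 2.20 to 15.7, which fits a log2 scale. Between 50.5% and 51.8% of an array's probe sets lay within 0.01 of the lowest value. Tested values had a median of 9.22 to 9.42 per array, and precision is limited by the number of arrays.

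The platform annotation gave 13647 of 18952 probe sets 1 gene, and current symbols came from the Release 6 gene table, where 13544 matched by gene ID. Without array controls, 1 probe set with the highest mean was kept per gene. Those whose mean exceeded 4 were fitted in limma 3.58.1 under R 4.3.3 (lmFit, eBayes, two-sided). Samples of 1 batch and RNAi group differed from each other with an SD of 0.155 to 0.264, and no 2 held the same values. The fit was tested on simulated data.

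The members, lists and alternatives were chosen with earlier results of these data known. The naming rule took JIL-1, all members, up to 6 genes per redox list that passed, and the 5 genes most like the member of largest change. List genes that did not pass, neighbours and marker genes were named after their values were seen. The GAPDH and Act5C signals are the mean of the 3' minus the mean of the 5' control probe sets, and both covariates were added after the data were seen. Alternatives were other batch terms, filters, scalings, probe set choices and the removal of each sample.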

Additional observations from a re-analysis of the deposited data

Results flagged for a closer look

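The probe set shared by Prx6b, CG12896 and Prx6c changed differently in the batches. The change in batch B minus the change in batch A was 0.89 (limma, adjusted p = 0.00165), with each JIL-1 RNAi sample below the control samples of its batch. The value of dj-1beta in JIL-1 RNAi replicate 1, 10.78, lay apart from the other 4 JIL-1 RNAi samples, with a gap to the nearest that was 0.788 of the whole range. In all, 40 groups of 5 samples were examined for such a sample. In samples of 1 population chance marks about 1 in 20. Each group here held samples of both batches, without removal of batch means, so that rate may not apply.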

How the results depend on the processing

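Prx6c kept its call under every alternative run for the comparison over both batches. Prx6a lost it without a term for batch and with the GAPDH covariate only. Without a term for batch, 0 members and 0 redox list genes rose, 4 redox list genes fell, 501 of all tested passed, and Cat (-0.10) and Prx3 (-0.093) turned direction without passing. Without the filter on dim probe sets, 1 redox list gene rose, 1452 of all probe sets then tested passed, and 0 members were higher within batch B. With the GAPDH covariate 0 members and 0 redox list genes rose, 0 redox list genes fell and 33 of all tested passed. The SE of Prx6a was 0.31 in that fit, against 0.069 without the covariate. With the Act5C covariate Sod2 was at 0.016. The cause of these shifts was not tested.

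Leaving out 1 sample gave 0 to 1 members higher within batch B. Values that turned direction, none of them past the threshold, were Sod2 over both batches (-0.052 to 0.0056), Cat (-0.066 to 0.077) and Prx3 (-0.046 to 0.21) within batch A, and Sod2 (-0.080 to 0.047) and Prx3 (-0.019 to 0.066) within batch B. So did the change in batch B minus that in batch A of Sod2 (-0.051 to 0.076) and Prx3 (-0.18 to 0.082).

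For samples with the same replicate number, deviations from the batch and group means had correlations of -0.30 to 0.24 over 5 pairs. Number 3 joins a JIL-1 RNAi sample of batch B to a control sample of batch A. In combinations of 2 samples the deviations mirror each other. The correlations are therefore not independent and cannot show whether the numbers pair samples. With the number as a random replicate block beside batch, Prx6c was at -2.78 (limma, adjusted p = 4.47e-07) and Prx6a at 0.41 (adjusted p = 0.00214), and 2106 of all tested passed. Among the named genes Gclc alone lost its call there (adjusted p = 0.0564).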
